A study of Homo sapiens with 15 samples.

Results

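Voltage-gated ion channel subunits were followed from human embryonic stem cells through self-renewing neuromesodermal progenitors (srNMPs) into neurons and skeletal muscle. The set was defined by gene symbol alone: sodium channel genes (SCN alpha and beta subunits), calcium channel genes (CACN), potassium channel genes (KCN) and the HCN pacemaker channels. Of the 17999 genes listed, 135 matched: 13 SCN, 26 CACN, 92 KCN and 4 HCN genes. The KCN symbol covers more than voltage-gated channels. Among the 135 were 41 genes of the KCNJ inward rectifiers, the KCNK leak channels and the calcium- or sodium-activated KCNMA, KCNMB, KCNN and KCNT channels, and these are named as such below.

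The study induced srNMPs from the human embryonic stem cell lines H1 and HUES9 and differentiated them towards neurons or muscle. All 15 libraries were labelled wild type. Undifferentiated HUES9 cells (ESC) gave 1 library. An H1 and a HUES9 library were available for each of 6 groups: srNMPs at passage 8 and at passage 25, cells after 7 days in conditions labelled RABC or RASS, dorsal neurons and ventral neurons. Muscle cultures of HUES9 gave 1 library at day 40 and 1 at day 50. The labels give neural induction as the treatment of the srNMPs, 7-day cultures (called neuron progenitors) and neurons, skeletal muscle induction as that of muscle, and no induction for the ESC library. They name no agents, do not spell out RABC and RASS, give no age for the neurons, and do not tell which cultures of a line were separate. Levels are FPKM, fragments scaled to transcript length and library size, as the authors deposited them, so that levels of different genes are compared per length. The gene lengths used are not given in the sources used here.

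Ion channels of these families let a cell fire. Sodium channel alpha subunits open on depolarization and carry the upstroke of the action potential, and beta subunits adjust their gating and anchor them. Calcium channel alpha1 pores turn the voltage change into calcium entry, which releases transmitter at synapses and, through the skeletal muscle pore CACNA1S, triggers release of calcium from internal stores. Potassium channels end the action potential and hold the resting potential, and HCN channels carry an inward current that sets rhythm. Neurons and skeletal muscle use different members: SCN4A, CACNA1S, CACNB1, CACNG1 and KCNJ2 are the textbook muscle set, and SCN1A, SCN2A, SCN8A, CACNA1A, CACNA1B and KCNA2 are textbook neuronal subunits.

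Of the 135 members, 101 reached 1 FPKM in at least 1 library and entered the tests, and 34 did not. The number of members at 1 FPKM or more was 19 to 40 in the ESC, srNMP and 7-day libraries, 63 to 71 in the 4 neuron libraries, and 38 in each muscle library. Together the members made up 0.0164% to 0.0685% of the summed FPKM before neurons or muscle, 0.144% to 0.216% in neurons, and 0.0814% and 0.103% in muscle at days 40 and 50. How members entered the tests matters for the counts that follow: 25 passed only through neuron libraries, 4 (CACNA1S, KCNQ1, SCN2B and SCN4B) only through muscle, 3 (KCNE3, KCNG3 and KCNK6) only through the ESC library, 1 only through an srNMP library, and 68 through several states. A member that passed only through neurons had to stand higher there.

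**Figure D1:**
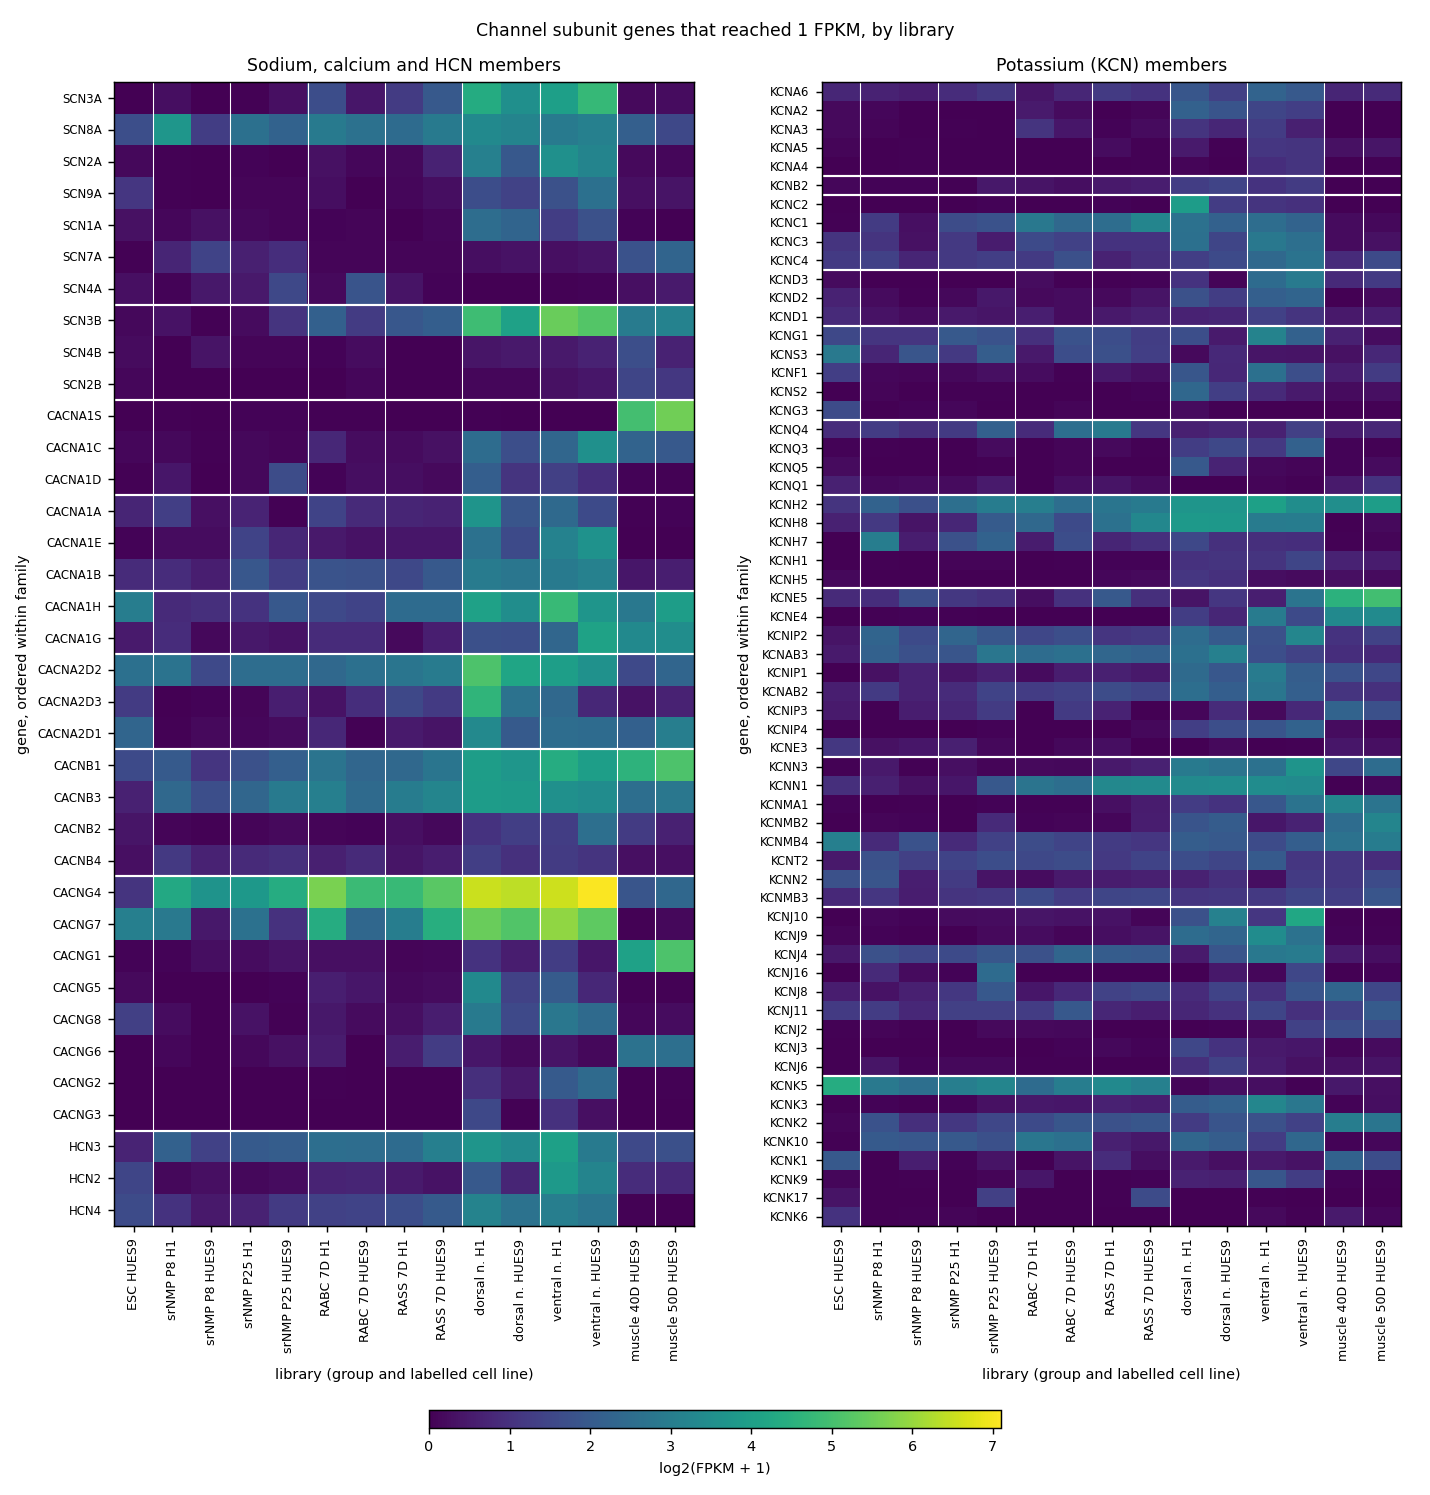
Level of 97 of the 101 members that reached 1 FPKM, as log2(FPKM + 1), with libraries in columns and genes in rows grouped by family (white lines part families and groups). The 4 neuron columns are brighter for most rows, and CACNA1S, CACNG1 and KCNE5 are bright in the 2 muscle columns.

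Relative depth, estimated from the smallest FPKM values, was 0.954 to 1.051 of the mean over libraries. The estimate searched only a limited range of ratios around equal depth, so a larger difference could not have been found. Both RASS libraries stood apart: their HUES9 minus H1 differences ran against those of all 5 other line pairs (r from -0.533 to -0.167 across genes, against 0.069 to 0.377 among the other pairs). Why they do was not tested. They are called the libraries labelled H1 and HUES9, and counts that rest on them are also given with the lines exchanged or, where a fit allows it, without both. The labelled cell types held their markers. All 12 neuron markers were at 1 FPKM or more in each neuron library (summed 1812 to 2931 FPKM), and all 12 skeletal muscle markers in both muscle libraries (summed 3939 and 6240 FPKM, against 3.34 to 5.80 in neurons). The muscle cultures also held 7 of 8 smooth muscle and fibroblast markers, summed 12760 FPKM at day 40 and 8259 at day 50 against 9.98 to 19.7 in neurons. Of the glial markers, 2 to 7 of 8 reached 1 FPKM in the neuron libraries. RNA came from whole cultures, so fewer cells of a type and less RNA per cell cannot be told apart.

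The step from ESC to srNMPs changed 17 members. Compared with the ESC library, srNMPs had higher CACNG4, CACNB3, KCNH2, KCNAB3, KCNK10 and SCN7A, and the lower members included CACNA1H, CACNA2D1, HCN2, KCNE3, KCNF1, KCNG3, KCNK1, KCNK5, KCNK6 and KCNMB4. That is 6 higher and 11 lower of 101 tested, beside 8.73% and 7.93% of all 14129 genes tested (16.7% in either direction), so the share of members called was near the background. The 3 members that passed only through the ESC library are among the 11, their fall largely fixed by how they entered, and over the 68 members of several states 6 were higher and 8 lower. The median log2 change was -0.001 over the members and 0.068 over all genes. All values of change here are differences of log2(FPKM + 1) from limma with Benjamini-Hochberg adjustment over all genes, and a gene is called at an adjusted p under 0.05. Adding 1 shrinks the change of weakly expressed genes.

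KCNK5, an acid-sensitive potassium leak channel, was the most abundant member of the ESC library at 20.2 FPKM. It stood at 6.30 and 5.02 FPKM in passage 8 and at 7.25 and 8.41 FPKM in passage 25 srNMPs (H1, then HUES9, here and below), a change of -1.47 ± 0.28 (SE; adjusted p = 0.015). CACNG4, one of the CACNG proteins known as transmembrane partners of AMPA-type glutamate receptors, moved the other way. It was 1.11 FPKM in the ESC library and 18.6, 11.6, 12.9 and 20.1 FPKM in the srNMP libraries (2.96 ± 0.45, adjusted p = 0.0056). CACNA2D1, which binds gabapentin and carries calcium channel pores to the membrane, fell from 3.99 FPKM to between 0.0306 and 0.157 FPKM (-2.35 ± 0.42, adjusted p = 0.010). The call of KCNK5 was lost with 0.1 FPKM added in place of 1 (adjusted p = 0.0955), and those of CACNA1H, CACNB3 and KCNH2 under several alternatives (highest adjusted p = 0.096). Without the HUES9 passage 25 srNMP library 2 members were called higher and 8 lower. On the ESC and srNMP libraries alone none were called higher and 6 lower, and CACNG4 (adjusted p = 0.151), KCNMB4, KCNK5, CACNA1H, CACNB3 and KCNH2 (0.194 to 0.326) lost their calls. With a single ESC library, these tests borrow the spread of the other groups and do not measure how ESC cultures vary.

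The srNMP libraries were not alike in channel genes. SCN8A, a sodium channel that in neurons sits at the axon initial segment and nodes, was 12.3 and 1.46 FPKM at passage 8 and 5.17 and 3.67 FPKM at passage 25. The HUES9 passage 25 library had values that no other srNMP library reached: KCNJ16 at 4.60 FPKM (0.0499 to 0.783 in the others), CACNA1D at 2.14 (0.0182 to 0.347), SCN4A at 1.91 (0.0570 to 0.401) and SCN3B at 1.11 (0.0316 to 0.279). The neural progenitor transcription factor genes PAX6 and NKX6-1 were also high in it, at 24.5 and 22 FPKM against at most 0.324 and 0.944 in the other srNMP libraries. Their part in these values was not tested.

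After 7 days in RABC or RASS, 3 members differed from srNMPs: KCNN1 and KCNC1 were higher and SCN7A was lower. The 2 higher and 1 lower of 101 stand beside 1.73% and 1.69% of all genes (3.43% in either direction). At 2.97%, the share of members called was no higher than the background. KCNN1, a small-conductance calcium-activated potassium channel, was 0.554, 0.236, 0.340 and 2.89 FPKM in srNMPs, 5.58 and 4.92 in RABC, and 8.87 and 9.53 in RASS (2.16 ± 0.30, adjusted p = 0.023). All 4 values of the 7-day cultures lay above all 4 of srNMPs. This was not counted over all genes, and KCNN1 was picked because it was called. KCNC1, a fast potassium channel of rapidly firing neurons, was 0.228 to 2.46 FPKM in srNMPs and 4.28 to 8.39 FPKM at 7 days (1.52 ± 0.25, adjusted p = 0.032). SCN7A, a sodium-sensing relative of the voltage-gated pores, was 0.533 to 1.71 FPKM in srNMPs and 0.0598 to 0.0750 FPKM at 7 days (-0.84 ± 0.13, adjusted p = 0.028). Neither rise was called without both RASS libraries (adjusted p = 0.154 for KCNN1 and 0.0981 for KCNC1), and the count of members called moved from 3 to 0 by limma without them (14 at an unadjusted p under 0.05), to 5 with their lines exchanged, and to between 0 and 11 when 1 library was left out. It was 0 by limma without the H1 RABC library or the RASS library labelled HUES9 (14 and 17 at an unadjusted p under 0.05), 1 without the HUES9 RABC, H1 passage 25 or HUES9 passage 8 library, and 11 without the H1 passage 8 library. The neuronal sodium channel genes SCN3A and SCN3B stood at 0.337 to 2.93 and 1.34 to 3.54 FPKM in the 7-day libraries but were not called (adjusted p = 0.11 and 0.051).

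Neurons differed from srNMPs in 71 members, 67 of them higher. Among all genes, 28.8% were called higher and 23.2% lower (52.1% in either direction). The median log2 change was 1.08 over the members tested and 0.053 over all genes. Of the 25 members that passed only through neurons 24 were called higher, which their entry largely fixed. These 25 include SCN1A, SCN2A, CACNG2, CACNG5, KCNA2, KCNC2, KCNJ9, KCNJ10, KCNK3 and KCNQ3, all named below. Of the 68 that passed through several states 41 were called higher and 3 lower. Without the KCNJ, KCNK and calcium- or sodium-activated genes the count was 56 higher and 3 lower of 76. The 4 that fell included KCNK5, KCNS3 and SCN7A.

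Sodium channel alpha subunits turned over. SCN3A, the alpha subunit known from fetal brain, was at 0.194, 0.00246, 0.0390 and 0.215 FPKM in srNMPs. It reached 19.5 and 10.6 FPKM in dorsal and 15.2 and 25.9 FPKM in ventral neurons (4.02 ± 0.36, adjusted p = 0.00029). SCN2A, a main sodium channel of excitatory brain neurons, went from at most 0.0408 FPKM to 7.58 and 2.92 in dorsal and 10.8 and 8.16 in ventral neurons (2.92 ± 0.24, adjusted p = 0.00023). SCN1A, the alpha subunit of fast-spiking neurons, rose from 0.0785 to 0.241 FPKM to 4.81 and 3.87 in dorsal and 1.47 and 2.41 in ventral neurons (1.80 ± 0.12, adjusted p = 0.00013). SCN9A, best known from sensory and sympathetic neurons, rose to 1.65 to 5.09 FPKM (1.79 ± 0.18, adjusted p = 0.00044).

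SCN8A behaved differently from these. At 6.54 to 9.38 FPKM in neurons it overlapped the 1.46 to 12.3 FPKM of srNMPs, and it was not called (0.68 ± 0.44, adjusted p = 0.23). Only without the H1 passage 8 srNMP library, the highest of all 15, did it pass (1.27, adjusted p = 0.00295). The make-up of sodium channel alpha transcripts shifted. SCN8A took 34.7% to 87.7% of their summed FPKM in srNMPs, 57.6% to 67.4% at 7 days and 15% to 29.3% in neurons, whereas SCN3A took at most 2.83% in srNMPs, 3.93% to 26.2% at 7 days and 37.7% to 51.8% in neurons.

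Among beta subunits SCN3B led. It stood at 0.0316 to 1.11 FPKM in srNMPs and at 28.6 and 15.7 FPKM in dorsal and 43.8 and 35.8 FPKM in ventral neurons (4.49 ± 0.30, adjusted p = 0.00013). SCN2B and SCN4B were also called higher, but their highest neuron values were 0.341 and 0.602 FPKM.

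**Figure D2:**
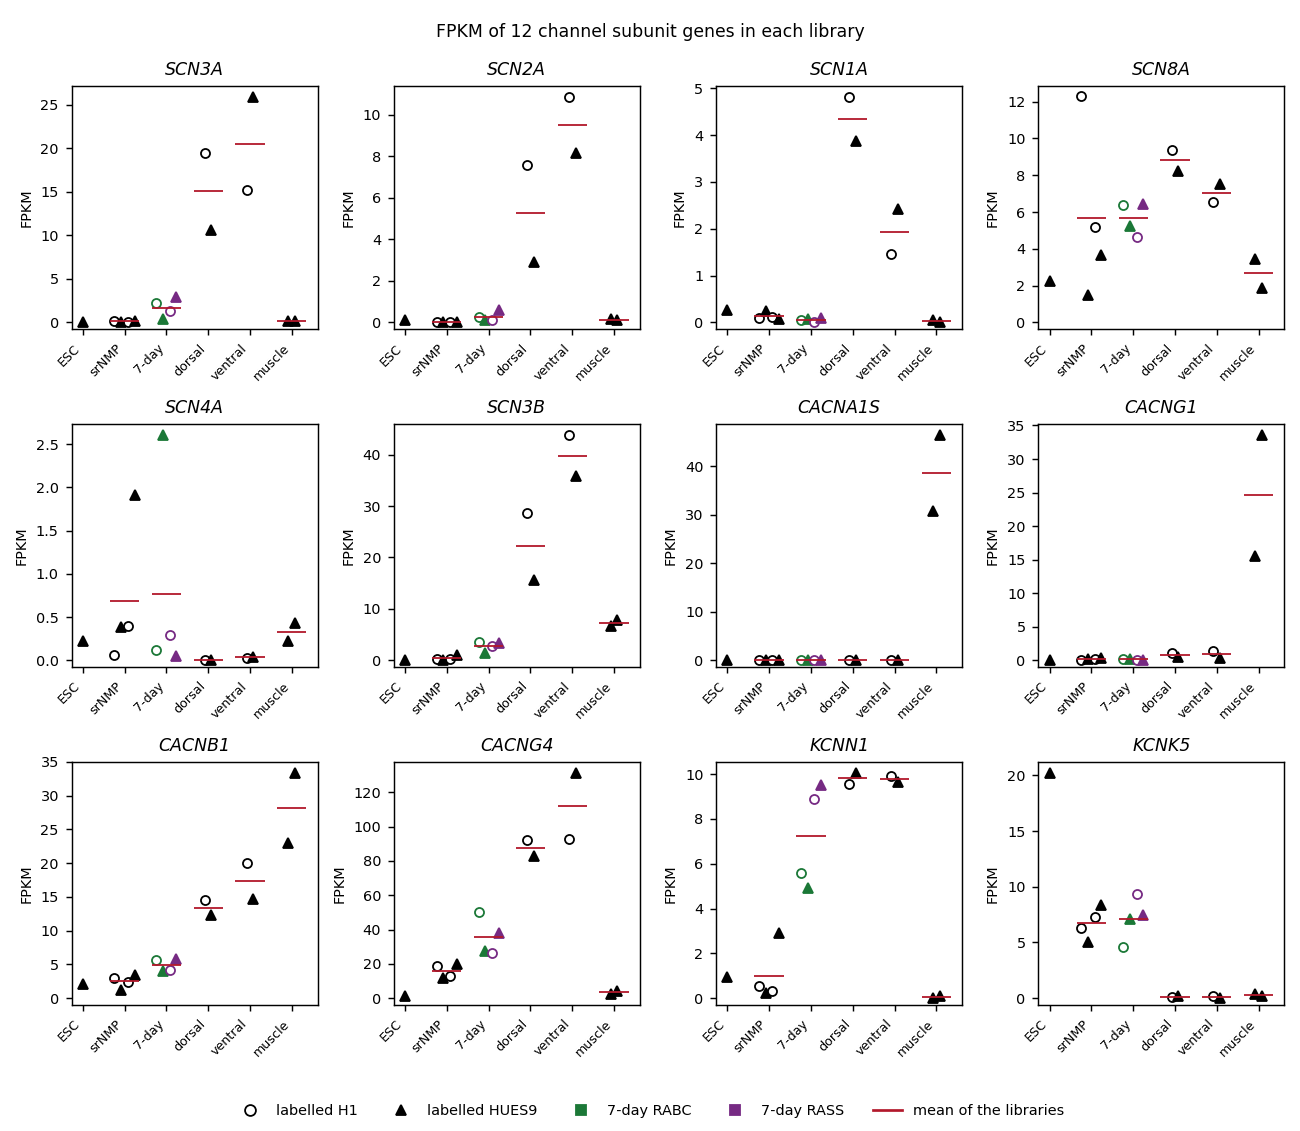
FPKM of 12 members in each library (linear axes that differ between panels), by state. Circles are libraries labelled H1 and triangles those labelled HUES9, colours mark the RABC and RASS 7-day cultures, and red lines are means of the libraries of a state. SCN2A and SCN1A are below 1 FPKM outside the neurons. SCN3A in the 7-day cultures lies above its srNMP values and far below its neuron values. SCN8A spans 1.46 to 12.3 FPKM within srNMPs alone, and CACNA1S is near 0 outside muscle.

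Calcium channel genes gave 18 higher and none lower of 23 tested in neurons, with a median log2 change of 1.87. All 3 presynaptic pores rose: CACNA1A (P/Q type), CACNA1B (N type) and CACNA1E (R type). CACNA1B was 0.499 to 2.79 FPKM in srNMPs and 5.90 to 7.63 FPKM in neurons, a narrow range over dorsal and ventral cultures of both lines (1.77 ± 0.19, adjusted p = 0.00047). CACNA1E was 0.169 to 1.71 FPKM in srNMPs and reached 5.30 and 2.03 FPKM in dorsal and 7.94 and 11.2 FPKM in ventral neurons (2.09 ± 0.24, adjusted p = 0.00060). CACNA1A was less even: 11.8 and 4.38 FPKM in the H1 dorsal and ventral neurons against 2.66 and 2.02 FPKM in the HUES9 ones, and 0.0330 to 1.47 in srNMPs (1.80 ± 0.25, adjusted p = 0.0014).

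The low-threshold T-type pores rose as well. CACNA1H had the highest level of any calcium channel pore in 3 of the 4 neuron libraries, at 15.8, 10.1, 26.7 and 12 FPKM (dorsal H1 and HUES9, ventral H1 and HUES9), against 0.793 to 2.85 in srNMPs (2.82 ± 0.30, adjusted p = 0.00051). It took 19.6% to 47.5% of the alpha1 FPKM of neurons. CACNA1G was 2.32 and 2.26 FPKM in dorsal neurons and 4.09 and 16.2 FPKM in ventral neurons, where it led in the HUES9 library (2.01 ± 0.36, adjusted p = 0.0036). Of the L-type pores CACNA1C rose, to 2.25 to 10.8 FPKM (2.42 ± 0.31, adjusted p = 0.00091). CACNA1D was 0.904 to 3.32 FPKM in neurons and was not called (adjusted p = 0.10), and CACNA1S stayed at or below 0.0289 FPKM.

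Auxiliary calcium channel subunits followed. CACNA2D1, CACNA2D2 and CACNA2D3 all rose, and CACNA2D2 was the main one at 11.1 to 33.5 FPKM, 50.5% to 67.8% of the set. CACNA2D3 was the least even, with 23.8 and 5.34 FPKM in dorsal and 4.24 and 0.729 FPKM in ventral neurons. CACNB1 and CACNB3, cytoplasmic beta subunits that bring pores to the membrane, reached 12.3 to 20.0 and 9.86 to 14.0 FPKM. CACNB1, the beta subunit of skeletal muscle, thus made up 43.3% to 59.6% of beta transcripts in neurons too, where its change was 2.26 ± 0.23 (adjusted p = 0.00044).

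The CACNG family held the highest member of all. CACNG4 was 92.1 and 83.2 FPKM in dorsal and 92.5 and 131 FPKM in ventral neurons, against 11.6 to 20.1 in srNMPs (2.6 ± 0.27, adjusted p = 0.00048). CACNG7, another AMPA receptor partner, was 34.8 to 59.0 FPKM in neurons, but between 0.369 and 6.30 FPKM in srNMPs (3.73 ± 0.60, adjusted p = 0.0022). CACNG2, CACNG5 and CACNG8 of the same group also rose, with highest values of 4.47, 9.24 and 6.60 FPKM. CACNG3 was listed at 0 in every library but the neurons and was not called there (0.0299 to 1.89 FPKM, adjusted p = 0.055). CACNG1, the gamma subunit of muscle, was 0.346 to 1.44 FPKM in neurons and its small rise (0.60 ± 0.19, adjusted p = 0.031) was lost under 5 of 15 alternatives, quantile normalization among them (0.32).

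All 3 HCN genes tested rose. HCN3 was the highest at 12.1, 9.53, 15.5 and 6.42 FPKM, and was 1.60 to 3.57 FPKM in srNMPs (1.59 ± 0.28, adjusted p = 0.0034). HCN4, the main sinoatrial pacemaker channel, rose from 0.402 to 1.29 FPKM to 5.42 to 7.96 FPKM (2.06 ± 0.21, adjusted p = 0.00040).

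Potassium channel genes gave 38 higher and 2 lower of 63 tested, with a median log2 change of 0.74. Every tested member of the voltage-gated KCNA (5), KCNC (4) and KCND (3) families was called higher. Of these 12, 6 (KCNA2, KCNA4, KCNA5, KCNC2, KCND1 and KCND2) passed only through neurons, which largely fixed their call, and 2 other KCNA genes did not reach 1 FPKM at all (KCNA1, at most 0.747 FPKM, and KCNA7, at most 0.634). KCNQ3, a voltage-gated potassium channel subunit that restrains repetitive firing, was at most 0.165 FPKM in srNMPs. It stood at 1.43 and 1.93 in dorsal and 1.26 and 3.64 FPKM in ventral neurons (1.48 ± 0.18, adjusted p = 0.00086). KCNQ3 had passed only through neurons, which largely fixed its rise.

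KCNC2 had a single high library, the H1 dorsal neurons at 14.2 FPKM, with 0.974 to 1.39 FPKM in the other 3. Its change of 1.79 became 1.13 without that library (adjusted p = 0.000327) and was no longer called without the H1 passage 25 srNMPs or the HUES9 ventral neurons (adjusted p = 0.0585 and 0.0543). KCNA2, a potassium channel flanking nodes of myelinated axons, was more even at 1.47 to 3.62 FPKM (1.67 ± 0.09, adjusted p = 8.5e-05). KCNC1 was 3.57 to 5.22 FPKM in neurons, no higher than the 4.28 to 8.39 FPKM of the 7-day cultures. Its call at 7 days was lost under 8 of 15 alternatives, not counting a refit on the srNMP and 7-day libraries alone. KCNH2 (10.2 to 15.4 FPKM) and KCNH8 (6.76 to 13.1 FPKM) were the highest of the KCNH family.

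Among the potassium channels that are not opened by voltage alone, 2 small-conductance calcium-activated genes rose. KCNN1 was 9.55 to 10.1 FPKM in all 4 neuron libraries and KCNN3 was 5.24 to 11.8 FPKM, from at most 2.89 and 0.411 in srNMPs (2.6 ± 0.30, adjusted p = 0.00065, and 2.76 ± 0.23, adjusted p = 0.00025). KCNJ9, an inward rectifier opened by G proteins, went from at most 0.138 FPKM to 3.96 to 9.97 FPKM (2.67 ± 0.15, adjusted p = 9.7e-05). KCNJ10, an inward rectifier best known from astrocytes and other glia, was 2.40 and 7.70 FPKM in dorsal and 1.17 and 17.7 FPKM in ventral neurons (2.40 ± 0.55, adjusted p = 0.010). The summed level of the 8 glial markers was 94.6 and 236.4 FPKM in dorsal and 100.4 and 236.4 FPKM in ventral neurons. The glutamate transporter gene SLC1A3 was 56.9 and 115.5 FPKM in dorsal and 45.2 and 136.8 FPKM in ventral neurons. GFAP went the other way, at 9.55 against 0.0267 FPKM in dorsal and 13.5 against 2.19 FPKM in ventral neurons (H1, then HUES9), S100B was 6.68 and 0.943 in dorsal and 7.72 and 11.3 FPKM in ventral neurons, and AQP4 was at most 0.205 FPKM. Their part in the KCNJ10 values was not tested.

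Of 8 KCNK leak channel genes tested, 2 were higher, 1 lower and 5 not called in neurons. KCNK5 stood at 5.02 to 8.41 FPKM in srNMPs and 4.61 to 9.40 FPKM at 7 days, and at 0.0743, 0.204, 0.200 and 0.0256 FPKM in neurons (-2.77 ± 0.17, adjusted p = 0.00012). KCNK3, an acid-sensitive leak channel that helps to hold the resting potential of motor neurons, rose from at most 0.244 FPKM in srNMPs and 0.584 at 7 days to 3.21 and 3.63 in dorsal and 8.56 and 6.02 FPKM in ventral neurons (2.47 ± 0.12, adjusted p = 6.0e-05). For neither gene did the groups overlap, which was not counted over all genes. KCNK3 had passed only through neurons, which largely fixed its rise and this separation. KCNK2 and KCNK10, which respond to membrane stretch, were expressed in all srNMP libraries (0.948 to 2.44 and 2.33 to 3.02 FPKM) and were not called in neurons.

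The promoter of KCNK3 is shown because this gene had the smallest adjusted p of all members in neurons and because REST, the repressor that keeps many channel genes silent outside neurons, binds a motif whose left part reads TTCAGCACC and whose right part reads GGACAG. The sequence is from RefSeq GRCh38.p14 (chr2:26692472-26692721, + strand), the 250 bases before the start site, 5′ to 3′, with matches to those parts on either strand in capitals.
KCNK3: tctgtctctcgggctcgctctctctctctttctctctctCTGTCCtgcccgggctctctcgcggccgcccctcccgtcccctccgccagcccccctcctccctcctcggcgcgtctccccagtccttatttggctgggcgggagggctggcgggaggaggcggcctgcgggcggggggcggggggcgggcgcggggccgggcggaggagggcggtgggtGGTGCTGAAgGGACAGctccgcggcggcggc
On this strand the longer part (its reverse complement) begins 31 bases before the start site. The shorter part begins 211 bases (reverse complement) and 21 bases before it. The neighbouring parts at 31 and 21 bases thus lie on opposite strands, not as the left and right part of a single motif. The SCN2A promoters, searched in the same way, held no match to either part. Promoters were matched for 97 of the 135 members (149 promoters). The longer part was in 3 of them, 2.01%, against 0.29% of all 35116 promoters of that length, and the shorter in 22.15% against 17.17%. A match in this window is a description of these letters and says nothing about binding. In the same samples REST itself was 6.81 to 8.98 FPKM in srNMPs and 3.92 to 5.47 FPKM in neurons (-0.63 ± 0.15, adjusted p = 0.011), and of 6 genes of the REST complex 4 were lower in neurons, where 23.2% of all genes were. Of the same 6 genes, 4 were also lower in muscle against srNMPs, where 31.6% of all genes were. REST itself was not below its srNMP range in muscle, at 8.58 and 9.40 FPKM at days 40 and 50.

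Genes of related pathways were counted too. Of 19 tested genes for neuronal channel partners (ankyrins, node and initial segment adhesion proteins, FGF11 to FGF14, DPP6 and DPP10, the NALCN leak channel complex and others), 15 were higher and 1 lower in neurons than in srNMPs, with a median change of 1.78. Over all genes 28.8% were higher and 23.2% lower, with a median change of 0.053. Their summed level was 39.7 to 69.1 FPKM in srNMPs, 62.2 to 107 FPKM at 7 days and 168 to 265 FPKM in neurons. SPTBN4, FGF14, NALCN and FAM155A of this list reached 1 FPKM only in neurons, which largely fixed their direction.

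Of 38 called members named by rule, 36 stayed called under all 15 alternatives other than refitting on the srNMP and neuron libraries alone. The count of members called was 67 to 72 when any 1 library was left out and 69 on those libraries alone. Scaling all libraries to equal totals moved the median of all genes from 0.053 to 0.285, and quantile normalization to -0.062. The median of the members, 1.08, became 1.2 and 0.79.

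The steps from the 7-day cultures to each neuron type were also tested. Dorsal neurons against RABC had 38 members higher and 1 lower, beside 10.7% and 6.81% of all genes (17.5% in either direction), and 18 of the 38 had passed only through neurons. Ventral neurons against RASS had 46 higher and 2 lower, beside 13.8% and 9.98% (23.7%), and 16 of the 46 had passed only through neurons. Over the 68 members of several states the counts were 20 higher and 1 lower in the dorsal step and 28 and 1 in the ventral step. The dorsal count leaned on single libraries. It was 19 without the H1 dorsal neurons, 19 without the H1 RABC culture and 13 without the HUES9 one. The ventral count was 31 without the RASS library labelled H1 and 54 with the lines of both RASS libraries exchanged. On the 4 libraries of each step alone, limma called 0 members (56 and 59 at an unadjusted p under 0.05).

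Within those steps the change of SCN1A, KCNA2, KCNN3 and KCNK5 was called in both and under each alternative that used all groups. SCN1A and KCNA2 had passed only through neurons, which largely fixed the direction of their change. SCN1A rose from 0.0427 and 0.0741 FPKM in RABC to 4.81 and 3.87 in dorsal neurons (2.33 ± 0.17, adjusted p = 0.0016), and from 0.0171 and 0.0966 in RASS to 1.47 and 2.41 in ventral neurons (1.46 ± 0.17, adjusted p = 0.0025). SCN3A rose by 2.90 ± 0.50 and 2.78 ± 0.50 (adjusted p = 0.013 and 0.0097), from 2.21 and 0.337 FPKM in RABC and 1.36 and 2.93 FPKM in RASS. That call ended without the H1 dorsal or HUES9 RABC library in the dorsal step, and without the RASS library labelled H1 or the HUES9 neurons in the ventral step. CACNA1A moved from 1.64 to 1.05 without the H1 dorsal neurons and from 1.30 to 0.83 without the RASS library labelled H1. Likewise CACNG5 moved from 1.86 to 1.01 and KCNC2 from 2.58 to 1.26 without the H1 dorsal neurons, and KCNC2 to 3.91 without the HUES9 ones.

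Ventral and dorsal neurons differed in 9 members. HCN2, KCND3, CACNG2, KCNA4 and KCNA5 were among those higher in ventral neurons, and KCNMB2, KCNH5 and KCNJ3 were higher in dorsal neurons. The 6 higher and 3 lower stand beside 1.47% and 0.573% of all genes (2.04% in either direction). The median change was 0.158 over the members and 0.035 over all genes. CACNG2, KCNA4, KCNA5, KCNH5 and KCNJ3 had passed only through neurons, 3 of them higher and 2 lower in ventral neurons. Each reached 1 FPKM only in the neuron type where it was called higher, which largely fixed its direction. Over the 68 members of several states 3 were higher and 1 lower. With quantile normalization the split of all called members was 5 and 5. It was 8 and 5 with the lines of both RASS libraries exchanged, and 4 and 2 without both.

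HCN2, a fast pacemaker channel of many central neurons, was 2.93 and 0.662 FPKM in dorsal and 13.0 and 8.21 FPKM in ventral neurons (2.15 ± 0.33, adjusted p = 0.026). KCND3, a channel of the transient A-type current, was 1.04 and 0.0628 FPKM in dorsal and 4.57 and 6.40 FPKM in ventral neurons (2.13 ± 0.28, adjusted p = 0.015). CACNG2, the AMPA receptor partner called stargazin, was 0.935 and 0.410 against 3.04 and 4.47 FPKM (1.51 ± 0.18, adjusted p = 0.012). In each of the 3 genes both ventral values lay above both dorsal values, and the HUES9 dorsal library was the lowest of the 4. The genes were picked because they were called, so this order adds no support, and it was not counted over all genes.

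KCNA4 and KCNA5 were weaker. KCNA4, which also carries A-type current, was 0.0623 and 0.00684 FPKM in dorsal and 0.921 and 1.09 FPKM in ventral neurons (0.95 ± 0.08, adjusted p = 0.0019). KCNA5 was 0.429 and 0.0197 against 1.2 and 1.09 FPKM (0.83 ± 0.14, adjusted p = 0.034). On the dorsal side KCNMB2, an inactivating beta subunit of the large-conductance calcium-activated channel, was 2.61 and 3.17 FPKM against 0.345 and 0.612 (-1.40 ± 0.21, adjusted p = 0.024). KCNH5 was 1.19 and 0.984 against 0.194 and 0.162 FPKM (-0.82 ± 0.08, adjusted p = 0.0048), and KCNJ3, a G-protein-opened inward rectifier, 1.85 and 1.06 against 0.392 and 0.352 FPKM (-0.82 ± 0.13, adjusted p = 0.031).

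**Figure D3:**
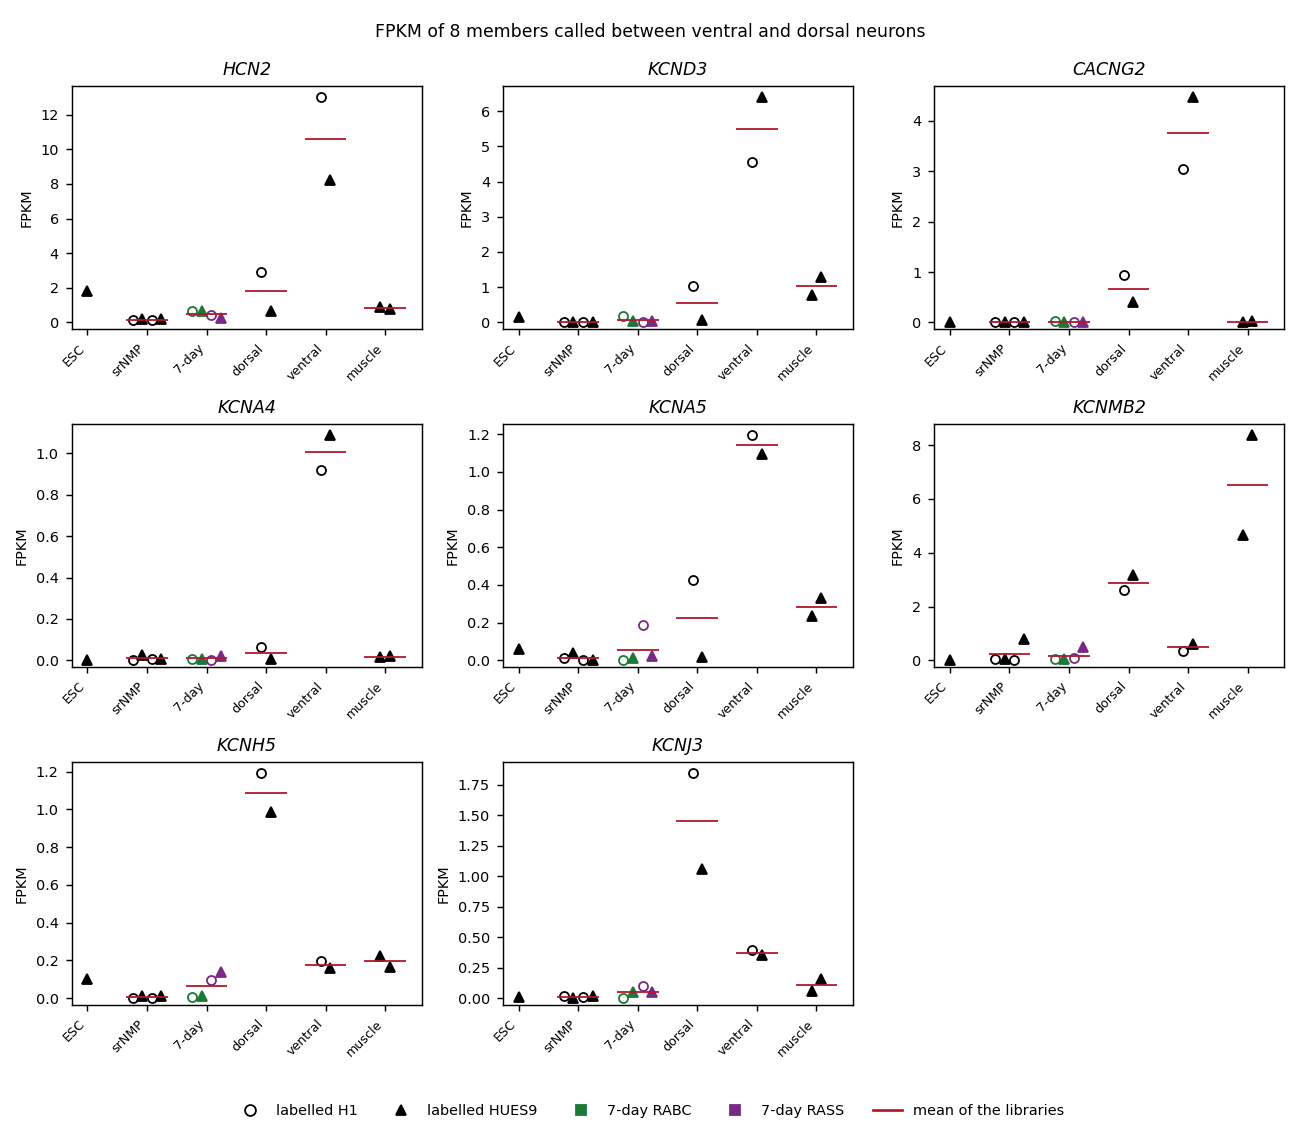
FPKM in each library of 8 of the 9 members called between ventral and dorsal neurons (linear axes that differ between panels), with symbols as in the plot of 12 members. The 5 genes from HCN2 to KCNA5 are higher in both ventral than in both dorsal libraries, and KCNMB2, KCNH5 and KCNJ3 the reverse, with KCNMB2 highest in muscle.

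CACNG2, KCNA4 and KCNH5 had passed only through the neuron type where they were higher. Their calls stayed under all 11 alternatives other than refitting on the 4 neuron libraries alone, which called 0 members by limma (26 at an unadjusted p under 0.05). The call of KCND3 ended only with 0.1 FPKM added (adjusted p = 0.0761). Those of HCN2, KCNA5, KCNJ3 and KCNMB2 each ended under 4 to 6 of the 11, mostly when a library was left out (adjusted p up to 0.18), and the change of KCNA5 became 0.55 with quantile normalization. SCN1A, at 4.81 and 3.87 in dorsal and 1.47 and 2.41 FPKM in ventral neurons, fell just outside (-0.88 ± 0.17, adjusted p = 0.052). The neurofilament gene NEFL was 39.2 and 29.4 FPKM in dorsal and 476 and 715 FPKM in ventral neurons, and the summed level of 8 glial markers was 94.6 to 236.4 FPKM in dorsal and 100.4 to 236.4 FPKM in ventral neurons. Their part in these differences was not tested.

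For 2 members the change from the 7-day culture itself differed between the neuron types. KCNA4 rose in ventral neurons over RASS (0.0000 and 0.0213 FPKM) by 0.95 ± 0.11 more than in dorsal neurons over RABC (adjusted p = 0.021 for the difference). KCNH5 rose in dorsal neurons, from 0.00501 and 0.0124 FPKM in RABC, and the ventral change minus the dorsal change was -0.97 ± 0.11 (adjusted p = 0.022). That is 1 higher and 1 lower of 101, beside 0.326% and 0.219% of all genes (0.545% in either direction). Both genes passed only through neurons, each with 1 library of its higher group at 1 FPKM or more. The count was again 1 and 1 with the lines of both RASS libraries exchanged. It moved between 0 and 6 when single libraries were left out, and 29 of the 101 had an unadjusted p under 0.05. It was 0 by limma without any 1 of the RABC or RASS libraries (17 to 25 at an unadjusted p under 0.05), 6 without the H1 ventral or HUES9 dorsal neurons, 5 without the H1 dorsal neurons and 4 without the HUES9 ventral neurons.

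Against srNMPs 34 members were higher and 10 lower in muscle, beside 18.2% and 31.6% of all genes (49.8% in either direction). The median change was 0.175 over the members and -0.224 over all genes, and scaling to equal totals moved the latter to -0.014. The mean of both muscle days was tested against groups with both lines, and the 2 muscle libraries, 1 a day and both HUES9, add nothing to the estimated spread. All 4 members that passed only through muscle were called higher, and over the 68 members of several states 26 were higher and 10 lower.

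Genes of the skeletal muscle calcium channel complex rose together. CACNA1S, the pore that senses voltage for contraction, was at or below 0.0433 FPKM in srNMPs and 30.8 and 46.5 FPKM in muscle at days 40 and 50 (5.24 ± 0.08, adjusted p = 2.4e-08). It made up 60.8% and 62.3% of the calcium channel alpha1 FPKM there. CACNG1, its gamma subunit, was 0.0427 to 0.288 FPKM in srNMPs and 15.6 and 33.6 FPKM in muscle (4.44 ± 0.24, adjusted p = 1.1e-05). CACNB1 was 22.9 and 33.4 FPKM (3.19 ± 0.30, adjusted p = 0.00018), and CACNA2D1, the alpha2delta subunit of this channel, 3.52 and 7.16 FPKM (2.64 ± 0.33, adjusted p = 0.00071). The related CACNG6 was 5.45 and 5.01 FPKM (2.50 ± 0.24, adjusted p = 0.00021). For none of these 5 genes, all called, did muscle overlap srNMPs, and how many of all genes do the same was not counted. CACNA1S had passed only through muscle, which largely fixed its rise and this separation. CACNA1S, CACNG1, CACNB1 and CACNA2D1 were higher at day 50 than at day 40, a difference with no replicate.

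The genes that work with this complex in muscle rose too. Of 11 tested muscle partners 10 were higher than in srNMPs and none lower, with a median change of 2.47. Over all genes 18.2% were higher and 31.6% lower, with a median change of -0.224. RYR1, JPH2 and TRDN reached 1 FPKM only in muscle, which largely fixed their rise. RYR1, the calcium release channel, was 69.3 and 131 FPKM and STAC3, an adaptor of the complex, 124 and 148 FPKM. CASQ1, the calcium buffer of fast muscle stores, was the exception at 0.291 and 0.717 FPKM (-0.36 ± 0.16, adjusted p = 0.11). CLCN1, the chloride channel of mature muscle, was at most 0.0277 FPKM in muscle and did not reach 1 FPKM in any library.

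The promoters of CACNA1S and CACNB1 are shown because these subunits of 1 muscle channel had different patterns, CACNA1S in muscle alone and CACNB1 in neurons as well. Both are from RefSeq GRCh38.p14, 250 bases before the start site, 5′ to 3′ on the gene's strand (minus for both), at chr1:201112427-201112676 and chr17:39197670-39197919. Capitals mark CAGCTG and CACCTG, E-box letters of the kind bound by myogenic factors such as MYOD1, and GGACAG as above, which begins 201 bases before the CACNA1S start site.
CACNA1S: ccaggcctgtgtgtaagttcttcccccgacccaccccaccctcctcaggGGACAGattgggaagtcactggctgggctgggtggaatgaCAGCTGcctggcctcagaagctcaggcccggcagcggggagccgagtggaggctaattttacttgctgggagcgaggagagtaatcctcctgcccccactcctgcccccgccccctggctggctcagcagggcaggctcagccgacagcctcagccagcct
CACNB1: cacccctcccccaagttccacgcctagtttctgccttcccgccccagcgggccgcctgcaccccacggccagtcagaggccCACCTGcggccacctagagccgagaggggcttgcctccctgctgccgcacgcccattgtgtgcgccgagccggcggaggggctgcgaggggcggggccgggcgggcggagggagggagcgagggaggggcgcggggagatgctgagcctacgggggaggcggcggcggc
CAGCTG, which reads the same on both strands, begins 161 bases before the CACNA1S start site and CACCTG begins 169 bases before that of CACNB1. These letters are common: CAGCTG was in 18.79% of the 149 member promoters and 13.99% of all promoters, and CACCTG in 19.46% and 17.49%, on either strand.

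The textbook sodium channel of adult muscle did not follow. SCN4A was 0.225 and 0.433 FPKM in muscle, within the 0.0570 to 1.91 FPKM of srNMPs (-0.47 ± 0.41, adjusted p = 0.38), and its highest value of all libraries was 2.61 FPKM, in the HUES9 RABC culture. The sodium channel alpha FPKM of muscle came mainly from SCN7A (2.43 and 3.86 FPKM, 33.1% and 53.5% of the set) and SCN8A (3.44 and 1.89 FPKM, 46.9% and 26.2%). SCN7A rose over srNMPs (1.00 ± 0.17, adjusted p = 0.0025) and SCN8A was not called (adjusted p = 0.59). Of the beta genes SCN3B was again the highest at 6.74 and 7.84 FPKM (2.74 ± 0.39, adjusted p = 0.0012). SCN2B was 1.80 and 1.22 FPKM and at most 0.0176 in srNMPs (1.29 ± 0.07, adjusted p = 1.1e-05).

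**Figure D4:**
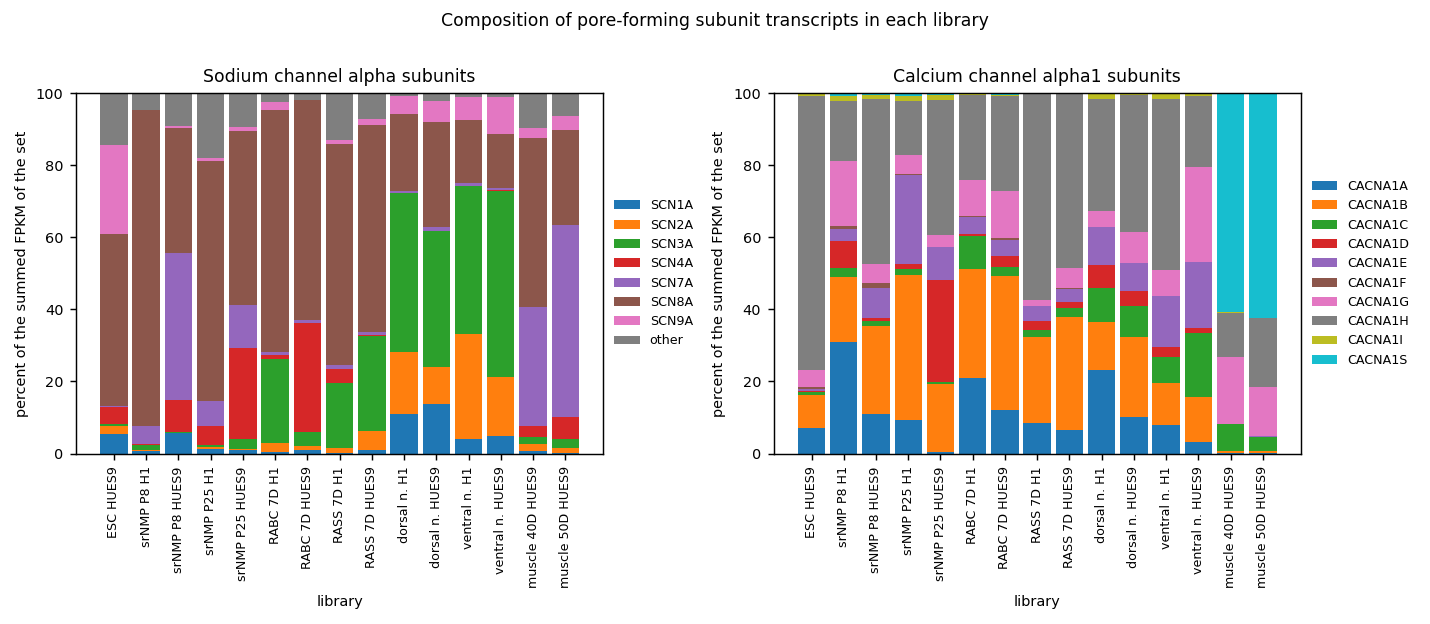
Share of the summed FPKM of 9 sodium channel alpha genes (left) and 10 calcium channel alpha1 genes (right) taken by each gene, stacked to 100% with 2 sodium channel genes joined as other, for each of the 15 libraries. SCN3A holds 37.7% to 51.8% in neurons, SCN7A with SCN8A most of the muscle bars, and CACNA1S 60.8% and 62.3% of the muscle bars and at most 0.057% in neurons.

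Potassium channel genes of muscle included auxiliary and calcium-activated ones. KCNE5, an auxiliary potassium channel subunit, was 0.886 to 2.24 FPKM in srNMPs and 22.5 and 29.8 FPKM in muscle (3.29 ± 0.59, adjusted p = 0.0034), with 5.67 FPKM in the HUES9 ventral neurons as the next highest library. KCNE4 was at most 0.0471 FPKM in srNMPs and 9.24 and 9.62 FPKM in muscle (3.50 ± 0.31, adjusted p = 0.00014). KCNMA1, the pore of the large-conductance calcium-activated channel, was 8.39 and 5.63 FPKM (2.87 ± 0.21, adjusted p = 4.9e-05), with its beta subunits KCNMB2 at 4.66 and 8.38 FPKM (2.47 ± 0.19, adjusted p = 7.3e-05) and KCNMB4 at 5.39 and 6.88 FPKM (1.47 ± 0.28, adjusted p = 0.0046). KCNJ2, the inward rectifier that holds the resting potential of muscle, was at most 0.129 FPKM in srNMPs and 2.28 and 2.11 FPKM in muscle (1.49 ± 0.26, adjusted p = 0.0033). Its relative KCNJ12 stayed at or below 0.642 FPKM in all libraries. KCNJ12 and KCNJ18 are near-identical in sequence, so reads may be split between them and both values are uncertain.

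The 10 members lower in muscle than in srNMPs included CACNB4, CACNG4, HCN4, KCNAB3, KCNC1, KCNJ4, KCNK5, KCNK10 and KCNS3. KCNK5 fell from 5.02 to 8.41 FPKM to 0.377 and 0.213 FPKM (-2.57 ± 0.22, adjusted p = 0.00013). KCNK5 was thus low in both neurons and muscle. Of 20 named calls in muscle over srNMPs, 19 held under all 11 alternatives that kept the other groups, and KCNC1 was lost under 5 of them. On the muscle and srNMP libraries alone 26 members were called in place of 44.

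The muscle cultures were mixed by their markers, with COL1A1 at 8504 and 4700 FPKM, COL3A1 at 3016 and 2611 FPKM and PDGFRB at 78.6 and 49.1 FPKM at days 40 and 50. KCNMA1, KCNE4 and CACNA1C are also known from smooth muscle. The 3 were at 8.39, 9.24 and 3.78 FPKM at day 40 and 5.63, 9.62 and 2.92 FPKM at day 50. Of the smooth muscle markers, ACTA2 was 400 and 295.7 FPKM, CNN1 3.09 and 1.96 FPKM and MYH11 0.452 and 0.185 FPKM. The part of smooth muscle and fibroblast-like cells in the muscle values was not tested.

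Set directly against neurons, muscle had 18 members higher and 51 lower, beside 14.6% and 31.9% of all genes (46.5% in either direction). The median change was -0.783 over the members and -0.341 over all genes, which quantile normalization moved to -0.097. Among members that passed through several states 12 were higher and 30 lower. The higher ones were led by CACNA1S (5.27 ± 0.08, adjusted p = 2.5e-08), CACNG1 (3.83 ± 0.24, adjusted p = 2.3e-05), KCNE5 (3.28 ± 0.59, adjusted p = 0.0037) and CACNG6 (2.37 ± 0.24, adjusted p = 0.00027). Among the others were CACNB1, KCNE4, KCNIP3, KCNJ2, KCNK1, KCNK2, KCNK6, KCNMA1, KCNMB2, KCNQ1, SCN2B, SCN4B and SCN7A. Leaving out the HUES9 ventral neurons moved the fall of KCNJ10 from -2.88 to -1.91.

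The lower ones were led by AMPA receptor partners and neuronal sodium and potassium channels. CACNG7 was 34.8 to 59.0 FPKM in neurons and 0.0314 and 0.119 FPKM in muscle (-4.92 ± 0.77, adjusted p = 0.0021). CACNG4 was 2.63 and 4.18 FPKM in muscle (-4.51 ± 0.35, adjusted p = 7.2e-05), and SCN3A 0.134 and 0.185 FPKM in muscle (-3.90 ± 0.46, adjusted p = 0.00056). CACNA1A, CACNA1B and CACNA1E, all HCN genes tested and 4 of 5 KCNA genes tested were lower in muscle. The neuron markers ELAVL3, ELAVL4 and RBFOX3 were at or below 0.088 FPKM in both muscle libraries, while DCX was 43.8 and 76.3 FPKM and NEFL 50 and 51.5 FPKM.

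**Figure D5:**
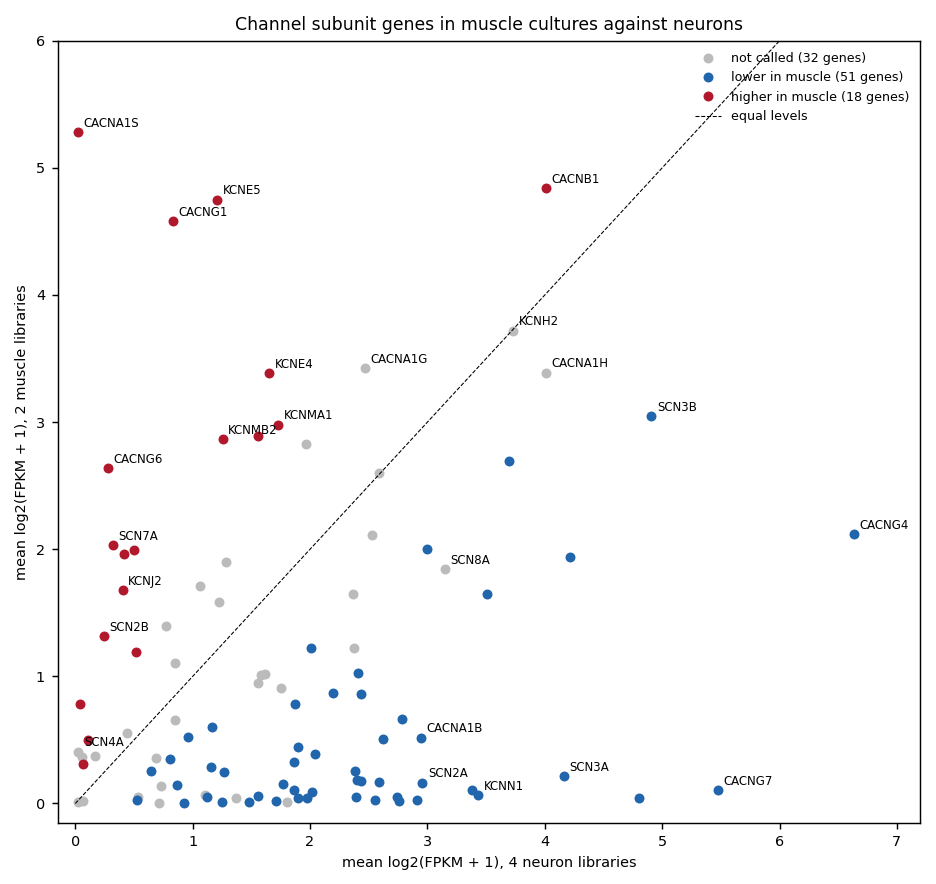
Mean log2(FPKM + 1) of each of 101 members in the 4 neuron libraries (x) and the 2 muscle libraries (y), with the dashed line marking equal levels. Red genes (18) were called higher and blue genes (51) lower in muscle, and KCNH2, CACNA1G, CACNA1H and SCN8A are among the 32 not called.

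Some subunits were shared by both fates. KCNH2 was 10.2 to 15.4 FPKM in neurons and 10.3 and 14.4 FPKM in muscle (0.07 ± 0.25, adjusted p = 0.84), higher than the 2.31 to 6.85 FPKM of srNMPs in each test. CACNA1G was 2.26 to 16.2 FPKM in neurons and 9.41 and 10.1 FPKM in muscle, and CACNA1H 10.1 to 26.7 and 6.12 and 14.4 FPKM. The test found neither different between the fates (adjusted p = 0.18 and 0.28), which does not show that they are equal. Both rose over srNMPs in muscle as in neurons. SCN3B was higher than in srNMPs in both fates and lower in muscle than in neurons (-1.75 ± 0.39, adjusted p = 0.0092), a call that ended with 0.1 FPKM added (adjusted p = 0.0821). CACNB1 was higher in muscle than in neurons by 0.93 ± 0.30 (adjusted p = 0.038), which 7 of 11 alternatives did not keep.

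The 34 members that never reached 1 FPKM entered no test. They comprised 7 of 16 KCNJ, 6 of 14 KCNK, 5 of 10 silent KCNF, KCNG, KCNS and KCNV modifiers, 3 each of the KCNH, the auxiliary and the calcium- or sodium-activated genes, 2 of 7 KCNA genes, and CACNA1F, CACNA1I, CACNA2D4 and SCN11A among the rest. Several came close, KCNS1 at 0.958, KCNE2 at 0.932 and CACNA1I at 0.854 FPKM in their highest library. A level under 1 FPKM in a bulk library does not show that no cell expresses the gene.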

How the data were processed

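RNA from 15 human libraries was sequenced with a stranded poly(A) protocol, per the labels' protocols. The authors deposited 1 table of FPKM values. Trimmomatic, HISAT2, HTSeq, Cufflinks and the build hg18 are named without roles or versions in the submitters' processing notes. No counts were used, so depth is known only relatively. Of 18189 low values in 3124 genes, 84.3% were whole multiples, within 2%, of the gene's smallest value, taken as 1 read's worth. Larger multiples meet this tolerance more easily, and the share that arbitrary values would reach was not computed. A column headed H1 matched no sample, so 1 column of values was not used.

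The 14129 of 17999 genes that reached 1 FPKM in any library were fitted as log2(FPKM + 1) with limma 3.58.1 in R 4.3.3, with 1 mean per group, the cell line as block and a trended prior (5 residual and 2.16 prior degrees of freedom). P-values were two-sided and Benjamini-Hochberg adjusted over all genes. They measure the spread between these samples, which may be technical. The fit was tested on simulated data. The line block comes from the labels: line differences correlated at 0.069 to 0.377 between groups other than RASS.

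The members and lists were chosen with earlier results of these data known. Named genes were, for each family and comparison, the 3 called members with the largest change and a group mean of at least 5 FPKM, each family's highest member, textbook subunits, and members called between neuron types. Other named genes, and the promoters printed, were chosen after their values were seen. A few members are not reported here.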

Additional observations from a re-analysis of the deposited data

Results flagged for a closer look

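For 2 channel genes the change from the 7-day culture to neurons differed between the ventral and dorsal routes by a test of the difference itself. The ventral change minus the dorsal change of KCNA4, an A-type potassium channel, was 0.95 ± 0.11 on the log2(FPKM + 1) scale (limma, adjusted p = 0.021), with 0.921 and 1.09 FPKM in ventral and 0.0623 and 0.00684 FPKM in dorsal neurons. That of KCNH5, a channel of the KCNH family, was -0.97 ± 0.11 (adjusted p = 0.022), with 1.19 and 0.984 FPKM in dorsal and 0.194 and 0.162 FPKM in ventral neurons. Both genes reached 1 FPKM only in neurons, each in 1 library of the group where it is higher. The test uses both RASS libraries, and limma called 0 members (17 to 25 at an unadjusted p under 0.05) when any 1 of the RABC or RASS libraries was left out.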

How the results depend on the processing

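Counts are of channel genes called by limma at an adjusted p under 0.05. Leaving out 1 library gave 10 to 17 for srNMPs against ESC, 0 to 11 for the 7-day cultures against srNMPs, 67 to 72 for neurons against srNMPs, 13 to 41 for dorsal neurons against RABC, 31 to 42 for ventral neurons against RASS, 9 to 11 for ventral against dorsal neurons, 0 to 6 for the difference of the steps, 37 to 42 for muscle against srNMPs and 64 to 69 for muscle against neurons. Fits on only the libraries of a comparison, with fewer samples, called 6 for srNMPs against ESC, 26 for muscle against srNMPs and 45 for muscle against neurons. They called 0 for the 7-day cultures, 0 for the dorsal step, 0 for the ventral step, 0 between neuron types and 0 for the difference of the steps. At an unadjusted p under 0.05 those 5 fits held 26, 56, 59, 26 and 25 members. Without the cell line as a replicate block the counts became 5 for the 7-day cultures (3 with it) and 4 for the difference of the steps (2 with it), and no other count moved by over 1.5 times. With 0.1 FPKM added, 7, 3 and 1 members were called for the 7-day cultures, between neuron types and for the difference of the steps, and quantile normalization called 1 for the last. For these settings the cause was not tested. In 2 alternatives chosen after seeing the data, the 7-day count was 5 when both RASS libraries swapped line labels and 0 without both. No named gene's change was reversed under an alternative where the gene was called in that fit or in the main one. Sign changes of genes called in neither fit were not counted. ESC and muscle were single libraries per group, so their own spread was not measured, and the depth behind FPKM is unknown.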
